A study of Bos taurus with 90 samples.

Results

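The levels of 3 mature microRNAs (miRNAs) of cattle were followed across tissues and diets. They were miR-22-3p and miR-22-5p, which are the products of the opposite arms of the miR-22 hairpin, and miR-101. They were selected on their own levels, because miR-22-3p and miR-101 stood above every other tissue in liver, so their levels in liver against the other tissues are a description and carry no test. They are 3 of the 388 miRNAs listed in any tissue, and each was listed in all 5 tissues, as were 289 miRNAs. The animals were Chinese Holstein cows in mid-lactation, 18 in all, in 3 diet groups of 6 with alfalfa hay, corn stover or rice straw as the forage. From each cow liver, mammary gland and the epithelium of rumen, jejunum and duodenum were taken, which gave 90 small RNA libraries in 15 groups of 6. There was no untreated group, so each diet was compared with the others. Values are in CPM, the mapped reads of a miRNA scaled to a common total over all annotated miRNAs of a library, so they are shares of the miRNA pool and not amounts per cell.

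A miRNA hairpin is cut into a short duplex, and one strand is usually kept in the silencing complex while the other is lost. The 3p strand of miR-22 is the strand usually kept, and it is known as an abundant miRNA of liver and heart that has been linked to lipid handling. miR-101 is known for targeting EZH2, the enzyme that places the repressive H3K27 methyl mark, and in liver it has mostly been studied as a miRNA that is low in tumours. The deposited tables give names and values, and the sequences were not used here. The mature miR-101 can come from more than one hairpin, so its reads are not assigned to a locus.

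The libraries held between 937556 and 15621501 mapped reads, and the liver libraries between 2004942 and 7684530. All 5 hepatocyte markers (miR-122, miR-192, miR-194, miR-483 and miR-885) were listed in liver and in mammary gland. miR-192 and miR-194, which gut epithelium also makes, were higher in duodenum (means of 256562 and 12199 CPM) than in liver (137788 and 7571 CPM), so the list as a whole does not mark liver. miR-122, the defining miRNA of hepatocytes, had a mean of 11021 ± 1144 CPM in liver (SD, n = 18). miR-122 was not listed in rumen, duodenum or jejunum and averaged 7.88 CPM in mammary gland. In 1 liver library the markers of other epithelia summed to 3421 CPM, against 249 CPM in the liver library with the least. The numbers that label the replicates were not shown to pair the samples, so samples are called same-numbered and not matched.

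In liver miR-22-3p was among the most abundant miRNAs. Its level was lowest at 85657 CPM, had a median of 127174 CPM and was highest at 175255 CPM, with a mean of 129073 ± 26364 CPM (SD, n = 18), or 12.9% of the miRNA reads. It ranked between 1 and 5 within a liver library. The other arm, miR-22-5p, was lowest at 56.1 CPM, had a median of 84.4 CPM and was highest at 123 CPM. miR-101 was lowest at 13076 CPM, had a median of 22088 CPM and was highest at 27259 CPM, and ranked between 8 and 12. The spread over the 18 liver samples was alike for the 3 members, with coefficients of variation of 20.4% for miR-22-3p, 19.7% for miR-22-5p and 18.4% for miR-101.

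**Figure D1:**
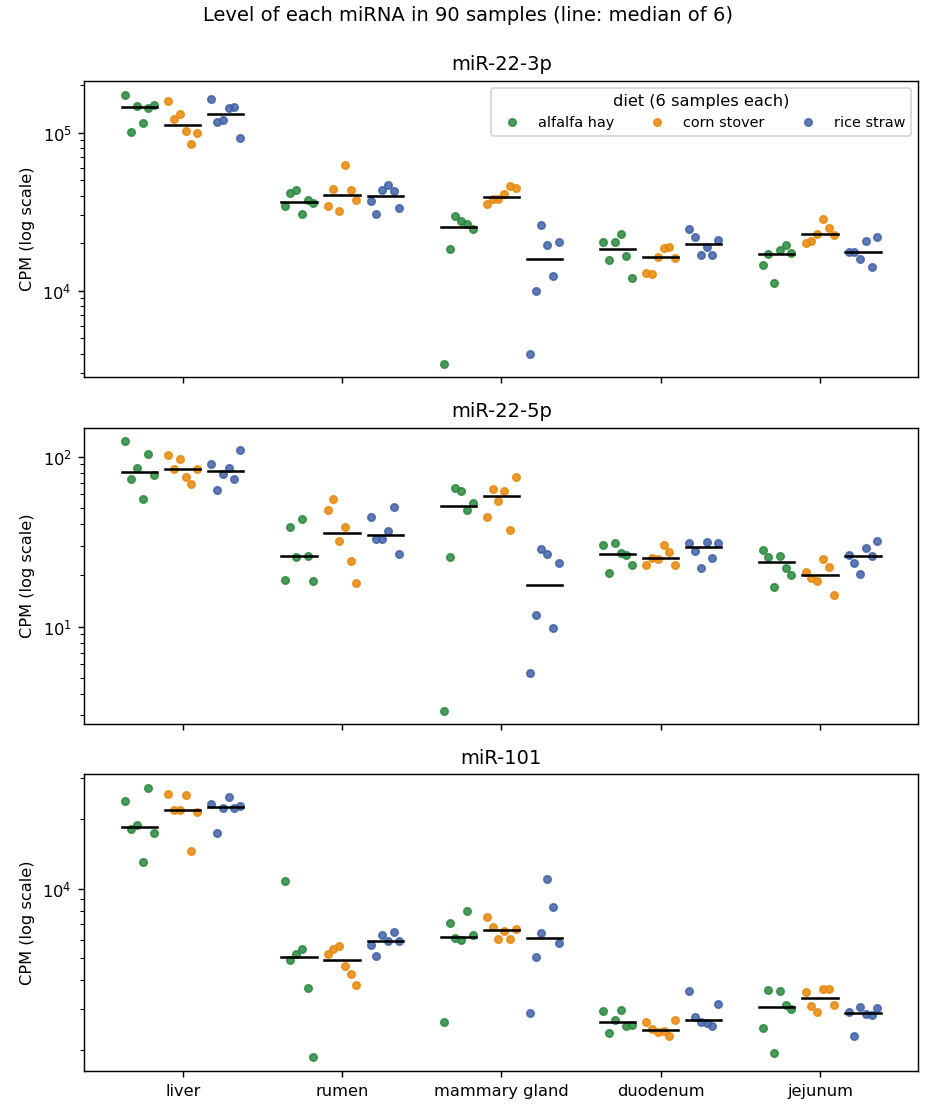
CPM of miR-22-3p, miR-22-5p and miR-101 (log axes) in every sample of 5 tissues, coloured by diet, with a line at the median of each group of 6. All 18 liver samples lie above all other samples for miR-22-3p and miR-101, while for miR-22-5p the liver samples overlap those of mammary gland.

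Outside liver the means of all 3 members were higher in rumen and mammary gland than in jejunum and duodenum. The order of rumen and mammary gland, and that of jejunum and duodenum, differed between the members. miR-22-3p averaged 39540 ± 7657 CPM in rumen, 25833 ± 13089 CPM in mammary gland, 19203 ± 4165 CPM in jejunum and 18005 ± 3550 CPM in duodenum (SD, n = 18 each). The ranges of neighbouring tissues in this order overlapped everywhere except between liver and rumen, where the lowest liver sample (85657 CPM) was above the highest rumen sample (62466 CPM). miR-101 averaged 6401 ± 1850 CPM in mammary gland, 5357 ± 1743 CPM in rumen, 3050 ± 477 CPM in jejunum and 2687 ± 320 CPM in duodenum. Only the step from liver to mammary gland was free of overlap for miR-101, with 13076 CPM in the lowest liver sample and 10987 CPM in the highest mammary sample. miR-22-5p averaged 39.2 ± 23.2 CPM in mammary gland, 34.0 ± 11.5 CPM in rumen, 26.8 ± 3.48 CPM in duodenum and 23.2 ± 4.39 CPM in jejunum, and all neighbouring tissues overlapped. For this arm 13 of 18 liver samples were above the highest mammary sample (75.5 CPM), and 18 of 18 were above every duodenum and jejunum sample.

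A mean in liver of at least 3 times that of each other tissue was taken as the limit of liver enrichment. Of the 330 miRNAs listed in liver 12 met it. miR-101 was just inside at 3.32 times mammary gland and miR-22-3p at 3.26 times rumen, next to miR-543 at 3.24. A tissue that does not list a miRNA was set to 1 CPM for this count. miR-154c at 2.94 and miR-654 at 2.73 were just outside, and miR-22-5p was well outside at 2.18 times mammary gland. These ratios depended on how the libraries were scaled. With upper-quartile scaling over the 289 shared miRNAs, the liver ratio of miR-22-3p was 5.44, that of miR-22-5p was 3.39 and that of miR-101 was 4.33.

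The products of the miR-22 hairpin were very unequal in every tissue. The arm ratio, that is the CPM of miR-22-3p over the CPM of miR-22-5p, does not change with the scaling of a library. Tests were run on its log2 with 1 CPM added to each arm, which can shift with scaling where miR-22-5p is low. It averaged 1542 ± 313 in liver, 1285 ± 452 in rumen, 856 ± 260 in jejunum, 755 ± 246 in mammary gland and 672 ± 93.4 in duodenum (SD, n = 18 each). The liver ratio was lowest at 854, had a median of 1491 and was highest at 2052, and it overlapped the ratio in each other tissue except duodenum, where the highest value was 845. Among hairpins with both arms listed, miR-22 had the most uneven pair in liver (1 of 29), rumen (1 of 27) and jejunum (1 of 27), and it ranked 2 of 25 in mammary gland and 3 of 27 in duodenum.

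**Figure D2:**
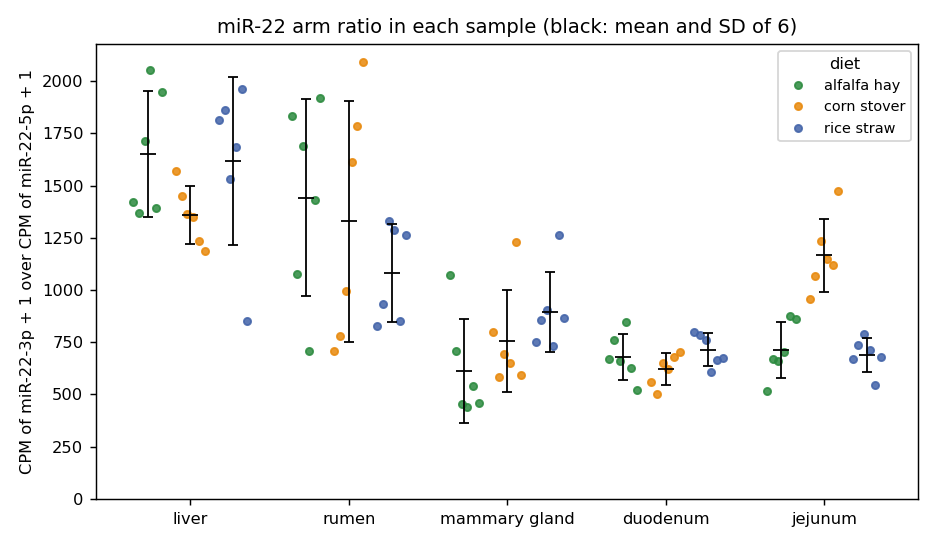
Arm ratio of miR-22 in each sample by tissue and diet, with the mean and SD of each group of 6. The values drawn are the plain ratio of CPM, although the axis label names 1 CPM added to each arm. The 6 jejunum samples on corn stover (957 to 1473) lie above the other 12 jejunum samples, whereas in liver the diets overlap.

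Since the 5p arm was rare, its reads set the precision of the ratio. In liver between 182 and 838 reads of miR-22-5p were counted per library. The SD of the log2 ratio that counting error alone gives was approximated at 0.08, against 0.31 observed over the liver samples. The approximation takes no added CPM, whereas the observed value has 1 CPM added to each arm, so the comparison is rough where reads of miR-22-5p are few. In mammary gland the same values were 0.26 and 0.42, and the shallowest library held 3 reads of miR-22-5p (3.20 CPM, exact 95% interval 0.660 to 9.35 CPM). Intervals of this kind cover counting error only.

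In liver none of the 3 members passed the test over diets. miR-22-3p had a median of 145490 CPM (lowest 101375, highest 175255) on alfalfa hay, 112203 CPM (85657 to 160337) on corn stover and 132643 CPM (93106 to 164543) on rice straw. The 3 groups overlapped widely. The F test over diets (limma on log2(CPM + 1), Benjamini-Hochberg adjustment over 326 miRNAs) gave an adjusted p of 0.896 for miR-22-3p, 0.99 for miR-22-5p and 0.904 for miR-101. Corn stover minus alfalfa hay on the log2 scale was -0.25 (95% interval -0.59 to 0.08) for miR-22-3p, 0.01 (-0.37 to 0.39) for miR-22-5p and 0.16 (-0.18 to 0.49) for miR-101. No miRNA of liver passed this limma test, so the background was 0% of 326, with 17 at an unadjusted p under 0.05. edgeR on the recovered reads also called 0, with 25 at an unadjusted p under 0.05.

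The other miRNAs known for roles in lipid, cholesterol or glucose handling in liver were examined with the same fit. Of 20 on the list, among them miR-122, miR-33a, miR-34a, miR-103 and miR-148a, 18 were tested in liver and none passed the limma test. Their median difference was 0.02 for corn stover minus alfalfa hay and -0.01 for rice straw minus alfalfa hay on the log2 scale, beside -0.02 and 0.02 over all miRNAs tested. The arm ratio of miR-22 in liver did not pass a test over diets either (permutation test, adjusted p = 0.403 over 5 tissues). Its mean was 1650 ± 301 on alfalfa hay, 1359 ± 140 on corn stover and 1618 ± 403 on rice straw (SD, n = 6 each). Rice straw replicate 6 had the lowest ratio (854), and without it the test passed, with an adjusted p of 0.0450 (permutation test). Corn stover minus rice straw on the log2 scale was then -0.38 in place of -0.21, and rice straw minus alfalfa hay turned from -0.06 to 0.12.

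Across the 18 liver samples miR-22-5p went with miR-101, and its relation with the other product of its own hairpin did not pass the test. Between miR-22-5p and miR-101, Pearson's r of log2(CPM + 1) was 0.74 and Spearman's rho 0.70 (permutation tests, adjusted p = 0.000870 and 0.00483 over 3 pairs). Without the 2 samples farthest from the median of miR-22-5p, alfalfa hay replicates 1 and 4, r was 0.66. Centred on the mean of each diet, r was 0.79 (adjusted p = 0.00192, permutation test). Between the arms, r was 0.43 and rho 0.44 (adjusted p = 0.0937 and 0.0956, permutation tests). Between miR-22-3p and miR-101, r was 0.41 and rho 0.41 (adjusted p = 0.0937 and 0.0956, permutation tests). Neither relation of miR-22-3p passed the threshold, and both fell to r of 0.21 and 0.20 without alfalfa hay replicate 1 and corn stover replicate 5. Whether the correlations differ from each other was not tested.

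Because miR-22-3p alone takes a large share of the reads, the same relations were computed on each member's ratio to all miRNAs other than the members. On that scale r was 0.79 for miR-22-5p with miR-101, 0.56 for the arms and 0.54 for miR-22-3p with miR-101 (permutation tests, adjusted p = 0.000180, 0.0213 and 0.0213). The relation between the arms also rested on single samples. Rice straw replicate 6 had high miR-22-5p (109 CPM) beside low miR-22-3p (93106 CPM), and without it r was 0.63 (adjusted p = 0.00996, permutation test). Within the 6 samples of a diet, r between the arms was 0.94 on corn stover (exact permutation p = 0.00972), 0.75 on alfalfa hay (exact p = 0.0778) and -0.28 on rice straw (exact p = 0.600). For miR-22-5p with miR-101, it was 0.64, 0.92 and 0.69 in the same order (exact permutation p = 0.183, 0.0153 and 0.136).

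**Figure D3:**
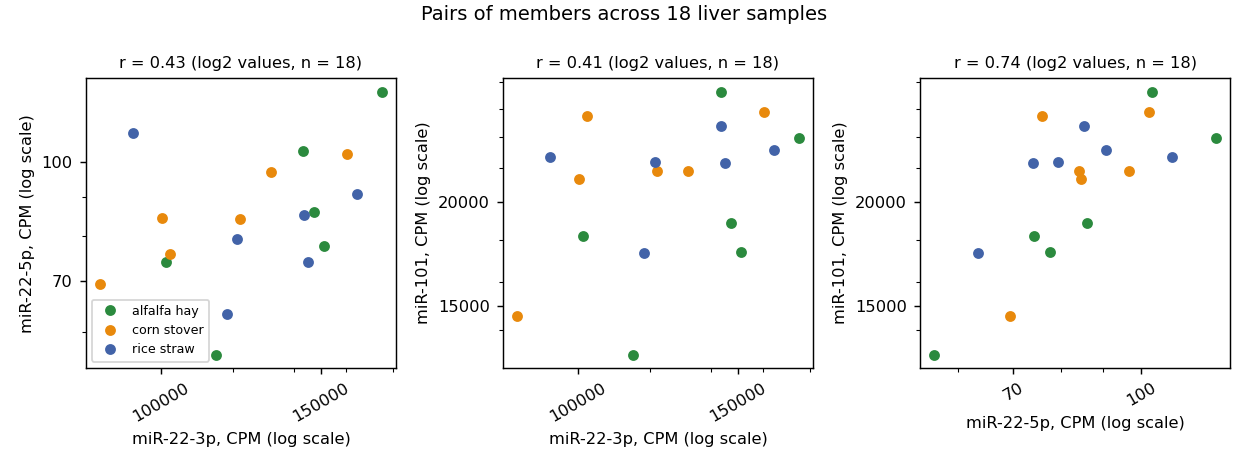
CPM of each pair of members (log axes) in the 18 liver samples, coloured by diet, with Pearson's r of the log2 values. The points of miR-22-5p against miR-101 lie closest to a line (r = 0.74), and 1 rice straw sample stands off the others in the plot of the arms.

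The same pairs were computed in the other tissues (12 pairs, adjusted together, chosen after seeing the data). The arms went together in mammary gland (r = 0.94, adjusted p = 0.000120, permutation test) and in duodenum (r = 0.72, adjusted p = 0.00498, permutation test), while r was 0.19 in rumen and 0.04 in jejunum, with neither past the threshold. In mammary gland the relation stayed at r = 0.86 without alfalfa hay replicate 1 and rice straw replicate 1. The relation of miR-22-3p with miR-101 there, with r = 0.70 and an adjusted p of 0.0133 (permutation test), rested on those samples, since r was -0.08 without them. In duodenum the relation between the arms was r = 0.28 with upper-quartile scaling (adjusted p = 0.453, permutation test). In jejunum miR-22-3p went with miR-101 at r = 0.68 (adjusted p = 0.00860, permutation test), and at r = 0.40 without alfalfa hay replicate 3 and corn stover replicate 4. The relation of miR-22-5p with miR-101, the pair that passed in liver, passed in mammary gland (r = 0.62, adjusted p = 0.0162, permutation test), where r was -0.11 without alfalfa hay replicate 1 and rice straw replicate 1. It had r of 0.48 in duodenum, 0.30 in rumen and 0.15 in jejunum, none of which passed. miR-22-3p went with miR-101 in duodenum (r = 0.62, adjusted p = 0.0156, permutation test), where r was 0.13 with upper-quartile scaling, and r was -0.03 in rumen. In jejunum the r of the arms centred on diet was 0.56 (adjusted p = 0.0591, permutation test).

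The members were next set beside other features of the liver libraries (15 relations). miR-22-5p was lower where the smooth muscle and stromal markers, the summed CPM of miR-143 and miR-145, were higher, with r = -0.73 and rho = -0.71 (permutation tests, adjusted p = 0.00780 and 0.0211). Without alfalfa hay replicate 1 and rice straw replicate 1, r was -0.68. miR-101 had r = -0.56 and rho = -0.66 with these markers (permutation tests, adjusted p = 0.118 and 0.0283), so only its rank correlation passed. Centred on diet both passed for miR-101, with r = -0.64 and rho = -0.74 (adjusted p = 0.0251 and 0.0120, permutation tests). For miR-22-3p r was -0.49 (adjusted p = 0.198, permutation test). The markers themselves took between 82274 and 177587 CPM of a liver library, so they were a large part of the total by which all values were divided. With upper-quartile scaling r with miR-22-5p was -0.59 and no relation passed (adjusted p = 0.156, permutation test). Their part in the co-variation of the members was not tested.

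**Figure D4:**
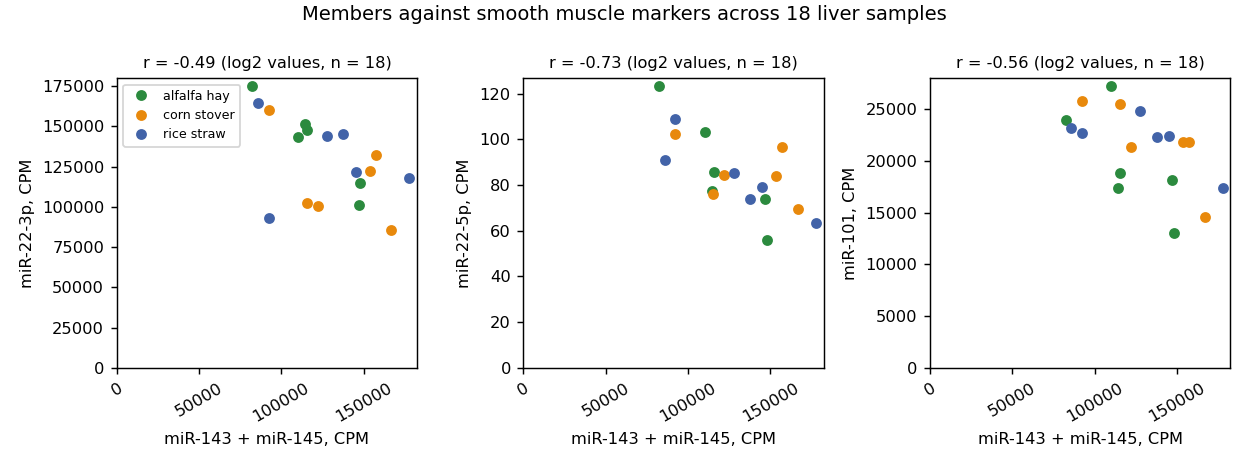
CPM of each member against the summed CPM of miR-143 and miR-145 in the 18 liver samples, coloured by diet, with Pearson's r of the log2 values. The downward slope is clearest for miR-22-5p (r = -0.73).

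None of the members passed a test against miR-122, the red blood cell markers (miR-451, miR-144 and miR-486), the leukocyte markers or the number of mapped reads in liver. For miR-122, r was 0.30 with miR-22-3p, 0.27 with miR-22-5p and -0.12 with miR-101. Centred on diet, miR-22-3p was lower in the more deeply sequenced liver libraries, with r = -0.63 (adjusted p = 0.0251, permutation test). Without rice straw replicates 1 and 6 this r was -0.48.

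The miRNAs most like each member across the 18 liver samples, by Pearson's r among 329 others, were named as a description. For miR-22-3p they were miR-425-5p (r = 0.83), miR-1839 (0.82) and miR-2284w (0.82). For miR-22-5p they were miR-505 (0.82), miR-30b-5p (0.81) and miR-331 (0.78), and for miR-101 they were miR-103 (0.89), miR-339b (0.86) and miR-148a (0.84). By this measure miR-101 was the 7th most like miR-22-5p, while miR-22-3p was the 64th. Over all 90 samples and 288 others, where the tissues set most of the likeness, miR-22-3p was close to both other members. miR-22-5p was the most like miR-22-3p (r = 0.87), followed by miR-140 and miR-423-5p, and miR-22-3p was the most like miR-101 (r = 0.86). The pair of miR-22-5p and miR-101 was less alike (r = 0.76). miR-101 was the 6th most like miR-22-5p, where miR-339a came first, and miR-22-5p was the 12th most like miR-101. Samples of a tissue share its level, so these values over 90 samples carry no p.

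Levels in liver were not shown to follow those of the same-numbered sample elsewhere. None of 12 relations passed the test, and 2 had an unadjusted p under 0.05. These were miR-22-3p with jejunum (r = -0.57) and with mammary gland (r = -0.53), each with an adjusted p of 0.131 (permutation tests).

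In jejunum miR-22-3p was higher on corn stover than on both other diets, and miR-22-5p did not pass the test. miR-22-3p had a median of 17206 CPM (lowest 11280, highest 19429) on alfalfa hay, 17591 CPM (14213 to 21780) on rice straw and 22843 CPM (20029 to 28581) on corn stover. All 6 corn stover samples were above all 6 alfalfa hay samples, and they overlapped the rice straw samples. The F test gave an adjusted p of 0.0185 (limma, 336 miRNAs), and the background was 23.8% of miRNAs called in this tissue. miR-22-3p was 0.53 higher on the log2 scale on corn stover than on alfalfa hay (SE 0.14, adjusted p = 0.00897, limma), where 8.04% of miRNAs were called higher. Against rice straw it was 0.38 higher (SE 0.14, adjusted p = 0.0423, limma), where 9.23% were called higher. The median of all miRNAs was -0.17 for corn stover minus alfalfa hay.

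In this group 3 libraries stood apart from the rest. Jejunum corn stover replicates 1, 2 and 6 had 281, 440 and 221 CPM in miRNAs that the table does not list, against 44.9 to 72.6 CPM in the other 15 jejunum libraries. In these 3 libraries miR-22-3p was 20029, 20689 and 22666 CPM, and in the other 3 corn stover libraries it was 23019, 28581 and 25130 CPM. The fit was repeated without the 3, a choice made after seeing the data. Then 35 miRNAs in place of 80 were called over diets, and miR-22-3p was among them (adjusted p = 0.0365, limma). Its difference was 0.67 on the log2 scale from alfalfa hay (adjusted p = 0.0131, limma) and 0.52 from rice straw, where the call was lost (adjusted p = 0.0509, limma).

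miR-22-5p in jejunum had a median of 23.9 CPM (lowest 17.1, highest 28.1) on alfalfa hay, 26.2 CPM (20.3 to 32.1) on rice straw and 20.1 CPM (15.4 to 24.9) on corn stover, and the groups overlapped (adjusted p = 0.181, limma). miR-101 had medians of 3076, 2887 and 3344 CPM in the same order (adjusted p = 0.317, limma). This call depended on scaling, since miR-101 passed with trimmed-mean scaling (adjusted p = 0.00129, limma), with upper-quartile scaling (0.0357) and in edgeR on the recovered reads (0.00115). Its corn stover minus rice straw difference was 0.23 on the log2 scale without scaling and 0.43 with trimmed-mean scaling.

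In jejunum the arm ratio was highest on corn stover. It had a median of 685 (lowest 518, highest 874) on alfalfa hay, 695 (545 to 790) on rice straw and 1134 (957 to 1473) on corn stover. The 6 corn stover values were above all 12 others. The test over diets gave an adjusted p of 0.000850 (permutation test, 5 tissues). The ratio on corn stover was 1.64 times that on alfalfa hay and 1.67 times that on rice straw (exact permutation p = 0.00216 for each, the smallest that 6 against 6 allows in a two-sided test, adjusted p = 0.0162 over 15 pairs of diets). Rice straw and alfalfa hay differed by -0.03 on the log2 scale (SE 0.13, exact permutation p = 0.816). The difference from rice straw on the log2 scale was 0.74 with 1 CPM added, 0.76 with none and 0.69 with 5. The call held without each library in turn, with adjusted p between 0.000500 and 0.00245 (permutation tests). Without the 3 libraries that stood apart the ratio was 1121, 1147 and 1233 on corn stover, and the test over diets gave an adjusted p of 0.00965 (permutation test).

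**Figure D5:**
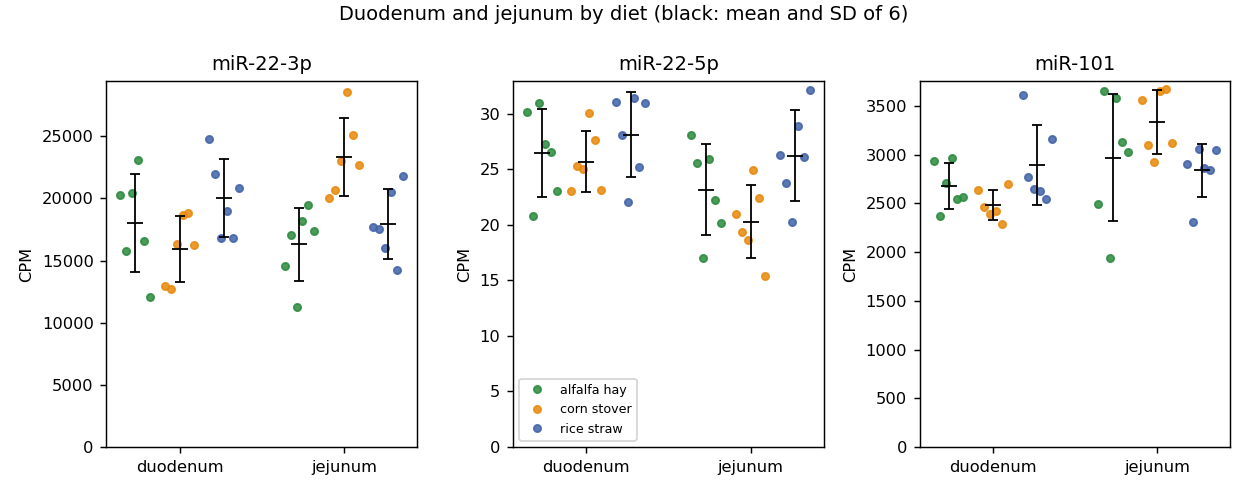
CPM of the 3 members in the 6 samples of each diet in duodenum and jejunum, with means and SDs. In jejunum the corn stover samples of miR-22-3p (20029 to 28581 CPM) are shifted up and those of miR-22-5p are not, and in duodenum no member passed the test over diets.

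Some markers of other cell types also differed with corn stover in the same libraries, where 23.8% of all miRNAs were called over diets. The endothelial markers miR-126-3p and miR-126-5p both passed the test over diets in jejunum (2 of 2, adjusted p = 0.0130 and 0.000721, limma), and their sum was between 8000 and 17708 CPM on corn stover against 18498 to 29441 CPM on the other diets. Of 7 leukocyte markers 2 passed, miR-146a and miR-146b, and both were lower on corn stover. This count was near the share over all miRNAs, so it is not read as a leukocyte result. The leukocyte sum was between 19879 and 32208 CPM on corn stover and between 24280 and 37762 CPM on the other diets. Of the smooth muscle markers miR-145 was lower on corn stover, with a difference from alfalfa hay of -0.75 on the log2 scale (adjusted p = 0.00422 over diets, limma), while miR-143 did not pass, and their sum was between 184453 and 296908 CPM on corn stover and between 147053 and 246794 CPM on the other diets. In such bulk samples fewer cells of a type and less RNA per cell cannot be told apart. Without the 3 libraries that stood apart miR-126-5p still passed (adjusted p = 0.0435, limma), while miR-126-3p, miR-145, miR-146a and miR-146b did not (adjusted p between 0.0569 and 0.417, limma). The part of these markers in the miR-22 values was not tested.

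In duodenum, the neighbouring gut segment, no miRNA passed the limma test over diets (0% of 336, 36 at an unadjusted p under 0.05, and 0 in edgeR with 52 at an unadjusted p under 0.05). miR-22-3p had a median of 18436 CPM (lowest 12036, highest 23063) on alfalfa hay, 16282 CPM (12689 to 18819) on corn stover and 19930 CPM (16799 to 24813) on rice straw (adjusted p = 0.557, limma). Its arm ratio was 681 ± 111 on alfalfa hay, 620 ± 76.3 on corn stover and 715 ± 77.4 on rice straw (adjusted p = 0.338, permutation test).

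Jejunum and duodenum were then compared over all diets, and neither arm nor miR-101 passed the test in limma, where 24.2% of 331 miRNAs were called. Jejunum minus duodenum on the log2 scale was 0.09 for miR-22-3p (95% interval -0.12 to 0.29, adjusted p = 0.581, limma), -0.21 for miR-22-5p (-0.38 to -0.04, adjusted p = 0.0696, limma) and 0.17 for miR-101 (0.03 to 0.32, adjusted p = 0.0753, limma). miR-22-5p passed with trimmed-mean scaling (adjusted p = 0.0191, limma), with upper-quartile scaling (0.00285) and in edgeR (0.0247). It also passed in limma with the same-numbered samples as a block (0.04999), both segments having come from each cow. miR-101 passed with trimmed-mean scaling (0.0393) and in edgeR (0.0283). The arm ratio was 0.30 higher on the log2 scale in jejunum (SE 0.11, p = 0.00936, permutation test, n = 18 each). This test did not pair the segments of a cow. With the same-numbered samples as a block p was 0.0277 (permutation test). The jejunum value was above the same-numbered duodenum value in 11 of 18 cases. The difference in the arm ratio lay in the corn stover samples. It was 0.89 on corn stover (exact permutation p = 0.00216, and 0.91 without the 3 jejunum libraries that stood apart), 0.05 on alfalfa hay (exact p = 0.725) and -0.06 on rice straw (exact p = 0.554). A permutation test of the change with diet gave p = 2.0e-05. Neither the exact tests nor this one paired the segments of a cow, and none of them was run with a block.

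In mammary gland both arms of miR-22 had their highest medians on corn stover, but neither passed the test over diets. miR-22-3p had a median of 25507 CPM (lowest 3438, highest 29638) on alfalfa hay, 39344 CPM (35235 to 45864) on corn stover and 15936 CPM (3995 to 26059) on rice straw. The corn stover samples were above all others. miR-22-5p had medians of 51.2, 58.6 and 17.6 CPM in the same order, and its rice straw samples (5.33 to 28.8 CPM) lay below all corn stover samples (37.3 to 75.5 CPM). The F test gave adjusted p of 0.0674 for miR-22-3p, 0.0829 for miR-22-5p and 0.860 for miR-101 (limma, 323 miRNAs), where 3.72% of miRNAs were called.

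The single contrast of corn stover minus rice straw, given after its values were seen and not the test fixed for this question, was 1.61 on the log2 scale for miR-22-3p (95% interval 0.68 to 2.55, adjusted p = 0.0208, limma) and 1.8 for miR-22-5p (0.65 to 2.94, adjusted p = 0.0271, limma). It was 0.12 for miR-101 (-0.52 to 0.76). In that contrast 25.1% of all miRNAs were called higher, and the calls of the arms are to be read against that share. The median of all miRNAs was 0.44 for corn stover minus alfalfa hay and -0.24 for rice straw minus alfalfa hay. The difference of miR-22-3p was 0.87 with trimmed-mean scaling and 0.68 with upper-quartile scaling.

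A few markers of other cell types differed between the diets in mammary gland, where 3.72% of all miRNAs were called. Of 7 leukocyte and 2 endothelial markers 0 passed. The smooth muscle sum was 183712 ± 34976 CPM on rice straw, 147159 ± 47553 CPM on alfalfa hay and 111323 ± 20281 CPM on corn stover (SD, n = 6 each), although neither of its 2 markers passed the test over diets. The sum of the other epithelial markers (the miR-200 family and miR-205, as miR-203 was not listed) was 32607 ± 13798, 49107 ± 16568 and 51811 ± 6146 CPM in the same order. Of 6 tested 1, miR-429, passed (adjusted p = 0.0434, limma). Of 3 red blood cell markers 1 passed, miR-144 (adjusted p = 0.0434, limma). The sum of the 3 was 2540 ± 1132 CPM on rice straw, 2365 ± 963 CPM on alfalfa hay and 1780 ± 628 CPM on corn stover. Their median log2 difference from alfalfa hay went the other way for rice straw, at -1.26, and was -0.12 for corn stover. The part of all these markers in the miR-22 values was not tested.

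The calls in mammary gland moved with the libraries that were kept. Alfalfa hay replicate 1 held 937556 reads and had the lowest values of all 3 members, and without it both arms passed the F test (adjusted p = 0.00500 and 0.00430, limma). Both arms also passed without rice straw replicate 3 (adjusted p = 0.0290 and 0.0476), and miR-22-3p without rice straw replicate 6 (0.0421). With the 3 shallowest mammary libraries (937556 to 1875290 reads) left out, a rule on depth alone chosen after seeing the data, both arms passed (adjusted p = 0.00815 and 0.0225, limma) and the differences were 1.16 and 1.31. With trimmed-mean or upper-quartile scaling of all 18 libraries neither arm passed.

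In rumen none of the members passed the test over diets (limma, adjusted p between 0.583 and 0.75), where 1.49% of 335 miRNAs were called. miR-101 in rumen ranged from 1858 to 10759 CPM within alfalfa hay alone. The arm ratio did not pass in rumen (adjusted p = 0.505, permutation test), and on corn stover it ran from 709 to 2092. In mammary gland it had an adjusted p of 0.10 (permutation test), with means of 613 ± 248 on alfalfa hay, 758 ± 245 on corn stover and 896 ± 193 on rice straw (SD, n = 6 each).

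Last, the diet differences in liver were compared with their mean over the other 4 tissues. miR-22-3p was 0.68 lower on the log2 scale for corn stover minus alfalfa hay in liver than in that mean, and the test was not passed (adjusted p = 0.513, limma, 289 miRNAs). The mean joined unlike differences, 1.16 in mammary gland, 0.53 in jejunum, 0.16 in rumen and -0.16 in duodenum. The fit used a single variance per miRNA and no cow term, while the log2 SD of miR-22-3p was 0.26 in rumen and 1.09 in mammary gland. For miR-22-5p the adjusted p was 0.906 and for miR-101 0.980. Of all miRNAs 0.346% were called. Whether the diet difference of miR-22-3p in jejunum differs from that in liver or duodenum alone was not tested.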

How the data were processed

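Small RNA of 90 samples was studied. Per the labels and the study's methods, total RNA with an integrity number above 7 was sequenced as 50-base reads, base-called with CASAVA 1.8 per the submitters' processing notes, and reads over 15 nt were aligned with sRNAbench to bovine precursors, with mismatches and several mappings allowed, so near-identical miRNAs can share reads. The authors deposited CPM, the reads of a miRNA scaled to the usual common total of reads mapped to all annotated miRNAs. Listed values were whole multiples of 1 read, and reads were recovered from them in all libraries (100% of 30114 values whole within 0.1), which gives the depths. Diets were compared with limma 3.58.1 (R 4.3.3; trend; threshold 0.05) on log2(CPM + 1), which understates changes of low miRNAs, for miRNAs above 1 CPM in more than 50% of samples. Alternatives were pseudocounts of 0.1 and 5, TMM and upper-quartile scaling, no filter, edgeR 4.0.16 on reads, a replicate block and leaving out libraries. Permutation tests used 100000 seeded, two-sided resamples (numpy 2.4.6). Fits were tested on simulated data. Within a tissue the p-values of limma and the permutation tests treat the cows of a diet as replicates. The tests between tissues (jejunum against duodenum, and liver against the others) treat libraries as independent, although each cow gave all tissues. The exceptions are those named as run with a block.

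The members, lists and tests were chosen with earlier results of these data known. Named miRNAs were the members, the 3 most like each by Pearson's r over 90 samples and over 18 liver samples, those nearest the enrichment limit, and markers. Same-numbered samples of a diet correlated above 0.1 in 82 of 180 pairs across tissues, with a mean r of 0.07 against -0.01 for different numbers. Across diets, where the same number stands for different cows, 31 of 90 did, with a mean r of 0.05 against -0.01. The numbers were not taken as pairs, although the series states that all tissues came from each cow. The seed part of the naming rule was not applied, since no sequences were used here.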

Additional observations from a re-analysis of the deposited data

Results flagged for a closer look

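The difference in the miR-22 arm ratio between jejunum and duodenum changed with diet (permutation test, p = 2.0e-05, 36 samples), being 0.89 on the log2 scale on corn stover, 0.05 on alfalfa hay and -0.06 on rice straw. The test treated the 36 samples as independent and did not pair the segments of a cow.

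In 60 groups of 6 samples (the 3 members and the arm ratio in each tissue and diet), 5 held a sample whose gap to the next, as a share of the range, was over Dixon's 95% critical value, where chance flags about 1 group in 20. miR-101 was 2311 CPM in jejunum of rice straw replicate 2, against 2841 CPM in the next lowest. In liver of rice straw replicate 2 it was 17390 CPM, against 22311 CPM. In mammary gland of alfalfa hay replicate 1, the shallowest library, miR-101 was 2649 CPM, against 5982 CPM. The arm ratio in mammary gland was 1231 in corn stover replicate 5, against 797, and 1263 in rice straw replicate 5, against 904.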

How the results depend on the processing

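The arm ratio by diet in jejunum, the jejunum call of miR-22-3p and the relation of miR-22-5p with miR-101 in liver kept their direction and stayed past the threshold under every alternative run for them, library by library included. The replicate block tied samples by number. In the tests over diets the same number stands for different cows, since each cow had 1 diet, so those calls pair no animals. The block brought miRNAs called for diet from 12 to 55 in mammary gland and from 5 to 3 in rumen. In mammary gland it called both arms (adjusted p = 0.0128 and 0.0270, limma). It called miR-22-5p between jejunum and duodenum (adjusted p = 0.04999, limma), left 0 called for liver against the other tissues, moved the counts from 80 to 74 for diet in jejunum and from 80 to 82 for jejunum against duodenum, and changed no other call of a member. In mammary gland the count was 0 with a pseudocount of 0.1 (limma, 89 at an unadjusted p under 0.05), 19 with 5, 26 in edgeR and 38 without the 3 shallowest libraries, a rule added after seeing the data. The count for liver against the other tissues was 0 with a pseudocount of 5 or upper-quartile scaling, 2 with TMM and 6 in edgeR, with no member among them (limma gave 28 at an unadjusted p under 0.05 under either of the former and 49 under the block). Leaving out 1 library gave 0 to 3 calls in liver, 0 to 27 in rumen, 0 to 84 in mammary gland, 0 to 1 in duodenum and 67 to 109 in jejunum. Without the 3 jejunum libraries rich in unlisted miRNAs 35 were called there in place of 80.

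The widest arm ratio contrast of each tissue (log2), without each library, ran from -0.32 to -0.20 in liver (corn stover minus alfalfa hay), -0.53 to -0.25 in rumen and 0.49 to 0.70 in mammary gland (both rice straw minus alfalfa hay), and -0.26 to -0.15 in duodenum and 0.67 to 0.79 in jejunum (both corn stover minus rice straw). The other liver contrasts reached -0.38 (corn stover minus rice straw) and 0.12 (rice straw minus alfalfa hay) without rice straw replicate 6. In mammary gland the test passed without alfalfa hay replicate 1 (adjusted p = 0.0270) or corn stover replicate 5 (0.0399, permutation tests). In liver r ran from 0.30 to 0.63 between the arms, 0.25 to 0.50 for miR-22-3p with miR-101 and 0.64 to 0.80 for miR-22-5p with miR-101. Upper-quartile scaling gave r of 0.47 and 0.47 for the former pairs (adjusted p = 0.0474 each, permutation tests) and the ratio to other miRNAs 0.56 and 0.54. Of 15 liver covariate relations 1 passed, 0 with upper-quartile scaling and 3 centred on diet.

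miR-101 for corn stover minus alfalfa hay in mammary gland turned from 0.21 to -0.24 with TMM, -0.46 with upper-quartile scaling, -0.26 in edgeR and -0.0099 without the shallow libraries; without each library it ran from -0.0099 (without alfalfa hay replicate 1) to 0.31. miR-22-5p for corn stover minus rice straw turned to 0.040 in duodenum with upper-quartile scaling, and in liver, where it was 0.039, to -0.036 and -0.015 without rice straw replicate 2 or corn stover replicate 1, with a range up to 0.12. None of these passed a test, and the cause was not tested. With upper-quartile scaling liver means were 176442, 116 and 28992 CPM for miR-22-3p, miR-22-5p and miR-101, and their ratios to the next tissue 5.44, 3.39 and 4.33. Depth limited the 5p arm most, at 3 reads in the shallowest library.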
